A study of Homo sapiens with 2 samples.

Results

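The genes studied here were the 10 VEGF ligands, receptors and co-receptors, taken by symbol from the 17397 genes listed in both expression tables. They were 5 ligands (VEGFA, VEGFB, VEGFC, VEGFD and PGF), 3 receptor tyrosine kinases (KDR, FLT1 and FLT4) and 2 co-receptors (NRP1 and NRP2). All 10 were listed in both libraries. RNA-Seq was done on 1 wild-type (WT) library and 1 MEIS2-/- library, both from H1 cells that had been driven toward blood for 4 days. H1 is an established human embryonic stem cell line. Each culture was kept for 2 days with activin A (50 ng/ml) plus BMP4 (40 ng/ml), followed by 2 days with VEGF (40 ng/ml) plus bFGF (50 ng/ml), so VEGF protein was in the medium of both genotypes. The MEIS2-/- cells came from clonal lines made with a lentiviral CRISPR/Cas9 vector and puromycin selection, and the labels do not say which clone was sequenced. MEIS2 mRNA itself was at 10.85 FPKM (WT) and 3.44 FPKM (MEIS2-/-). FPKM counts fragments relative to transcript length and to the mapped total, so levels of different genes can be compared within a library.

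VEGF ligands are secreted dimers that bring a pair of receptor molecules together at the cell surface and switch on their kinase. KDR, also called VEGFR-2 or FLK1, carries most of the signal of VEGFA to endothelial cells, and it marks the mesoderm from which endothelial and blood cells arise. FLT1 (VEGFR-1) binds VEGFA tightly, has a weak kinase and is also made as a secreted form that traps ligand. FLT4 (VEGFR-3) is the receptor of VEGFC and VEGFD and is best known from lymphatic vessels. The neuropilins NRP1 and NRP2 have no kinase, present VEGF to these receptors and also bind class 3 semaphorins.

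Transcripts of all 10 genes were lower in the MEIS2-/- library than in the WT library. Of these genes, 8 reached 1 FPKM in at least 1 library, the level set for comparison, and VEGFC and VEGFD did not. A log2 ratio was computed for each gene from the MEIS2-/- value over the WT value, each raised by 0.1 FPKM, so differences in genes near 0 come out too small. At least 2-fold lower values were found for 5 of the 8 genes, namely KDR, FLT4, NRP1, VEGFA and FLT1, and none was at least 2-fold higher. Among all 13075 genes compared, 7.97% were at least 2-fold lower and 7.84% at least 2-fold higher, and 40.6% were lower by any amount. All 8 genes were above 5 FPKM in the WT library, where 6.95% of genes were at least 2-fold lower. The median log2 ratio was -1.24 over the 8 genes and 0.12 over all genes compared. With 1 library per genotype there is no replicate check and no test, and how much parallel cultures vary is unknown. In bulk RNA, fewer cells of a type cannot be told apart from less RNA per cell.

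**Figure D1:**
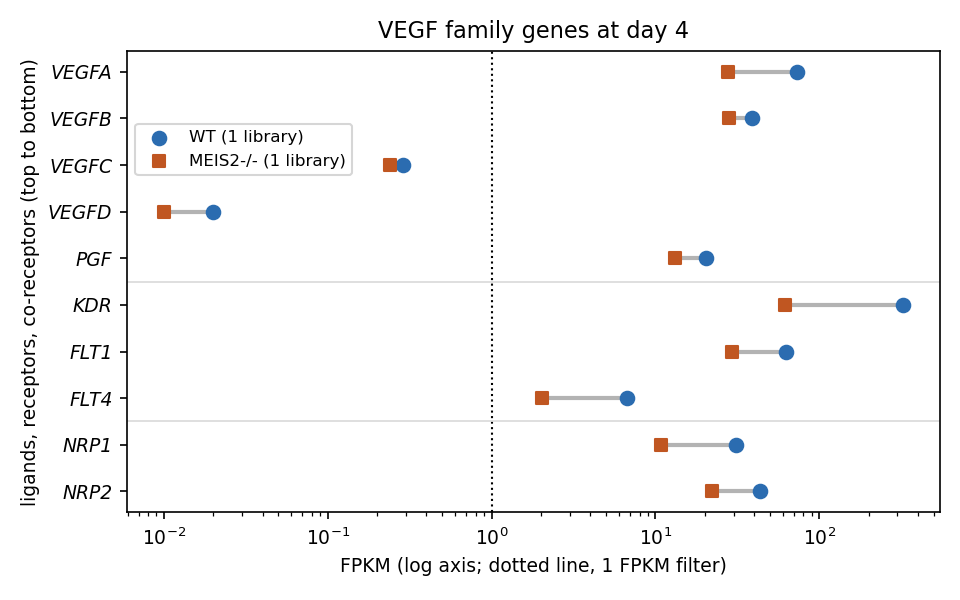
FPKM of the 10 VEGF family genes on a log axis, with a circle for the WT library and a square for the MEIS2-/- library. The square lies to the left of the circle for each gene, and VEGFC and VEGFD lie below the dotted line at 1 FPKM.

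The largest difference within the family was that of KDR. KDR was at 323.77 FPKM in WT and 61.98 FPKM in MEIS2-/- cells, a log2 ratio of -2.38. It was the 1 family gene that was at least 4-fold lower, a size reached by 1.84% of all genes compared. In order of level, KDR ranked 188 of the 13075 genes in WT and 1254 in MEIS2-/- cells. Ordered by log2 ratio from the lowest, it ranked 148. Among the 1548 genes at 50 FPKM or more in the WT library, 26 (1.68%) were at least 4-fold lower. KDR, VEGFA and FLT1 were the family genes in this range, and all 3 were at least 2-fold lower, against 8.79% of genes at that level.

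FLT4 followed among the receptors, although at a far lower level. It was at 6.67 FPKM in WT and 2.03 FPKM in MEIS2-/- cells, a log2 ratio of -1.67. FLT1 was at 62.48 FPKM in WT and 29.53 FPKM in MEIS2-/- cells, a log2 ratio of -1.08, which lies just past the 2-fold threshold. The order of the receptors by level was KDR, FLT1 and FLT4 in both libraries. The value of FLT1 sums 4 annotated transcripts, so the membrane-bound receptor and its secreted forms cannot be told apart, while that of KDR rests on 1 transcript.

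The start regions of KDR and FLT1 are shown because these were the most abundant receptors and both were at least 2-fold lower, by different amounts. The sequences come from RefSeq on GRCh38.p14, read 5′ to 3′ on the minus strand, and end at the base before the annotated start of the gene. RefSeq windows were matched for 7 of the 10 genes, with none for VEGFA, FLT4 and NRP1. The KDR window is chr4:55125596-55125845 and the FLT1 window is chr13:28495129-28495378. Capitals mark each match, on either strand, to any of 9 short motifs chosen after the values were known. These were TGACAG (bound by MEIS factors), GGAAG (ETS), GATAA (bound by factors of the GATA family), CAGATG (TAL1), ACGTG (HIF), GCGTG (also HIF), GGGCGG (SP1), TATAAA (the TATA box) and TGACGTCA (CREB).
KDR: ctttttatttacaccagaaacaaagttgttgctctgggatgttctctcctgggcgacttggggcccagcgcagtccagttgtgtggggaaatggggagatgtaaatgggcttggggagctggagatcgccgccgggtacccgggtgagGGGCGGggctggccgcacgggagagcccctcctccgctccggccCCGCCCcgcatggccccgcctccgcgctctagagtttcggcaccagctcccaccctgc
FLT1: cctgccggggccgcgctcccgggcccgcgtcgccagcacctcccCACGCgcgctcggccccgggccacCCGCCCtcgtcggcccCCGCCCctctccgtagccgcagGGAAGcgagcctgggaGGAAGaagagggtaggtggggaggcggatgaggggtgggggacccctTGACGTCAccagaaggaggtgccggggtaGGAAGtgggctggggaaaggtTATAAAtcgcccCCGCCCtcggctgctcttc
In the KDR window the only matches were GGGCGG, once on each strand, at 102 to 97 and at 58 to 53 bases before the start. In the FLT1 window GGAAG occurred 3 times, the nearest at 52 to 48 bases before the start, and TGACGTCA lay at 81 to 74 bases and TATAAA at 31 to 26 bases before it. That window also held GCGTG once and GGGCGG 3 times, all on the opposite strand. No marked match overlapped another. No TGACAG was found in either window, and 13.0% of the 35116 RefSeq windows of this length hold it. GGAAG is held by 65.1% of all windows, GGGCGG by 42.6%, GCGTG by 32.2%, TATAAA by 10.7% and TGACGTCA by 1.65%. These shares are 20.4% for GATAA, 18.5% for ACGTG and 12.2% for CAGATG, none of which was found in either window. Of the 8 windows matched for the 7 genes, 2 of them overlapping windows of PGF, none held TGACAG. With so few windows and a share of 13.0%, no conclusion is drawn from this. The VEGFD window was the 1 without GGGCGG, while that of VEGFC, also below 1 FPKM, held it 2 times. A match is a description of the letters and not a binding site, and sites outside the 250 bases were not searched.

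The co-receptors were both lower, NRP1 more so than NRP2. NRP1 was at 30.89 FPKM in WT and 10.75 FPKM in MEIS2-/- cells, a log2 ratio of -1.51. NRP2 was at 43.77 FPKM and 22.23 FPKM, a log2 ratio of -0.97, just short of the 2-fold threshold. With the libraries rescaled to a median log2 ratio of 0, the log2 ratio of NRP2 was -1.09 and 6 of the 8 genes were at least 2-fold lower, against 9.15% of all genes compared, with 6.37% at least 2-fold higher. Scaling with TMM, a mean of the log ratios taken without the extremes, gave the same count and the same value for NRP2, against 9.2% lower and 6.31% higher. NRP2 was thus the nearest gene outside the threshold and FLT1 the nearest inside it.

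Among the ligands, VEGFA, the main growth factor for endothelial cells, was the 1 gene at least 2-fold lower. It was at 73.37 FPKM in WT and 27.82 FPKM in MEIS2-/- cells, a log2 ratio of -1.40. PGF (placental growth factor), which binds FLT1 but not KDR, was at 20.28 FPKM and 13.22 FPKM, a log2 ratio of -0.61. VEGFB, the other ligand that binds FLT1 but not KDR, was at 38.71 FPKM and 28.08 FPKM, a log2 ratio of -0.46, the smallest difference among the 8 genes. The lymphatic ligands were barely detected. VEGFC was at 0.29 FPKM in WT and 0.24 FPKM in MEIS2-/- cells, and VEGFD at 0.02 FPKM and 0.01 FPKM, so neither gave a usable ratio. FLT4 was therefore measured in cultures whose own transcripts for its ligands were near the lower end of the table.

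**Figure D2:**
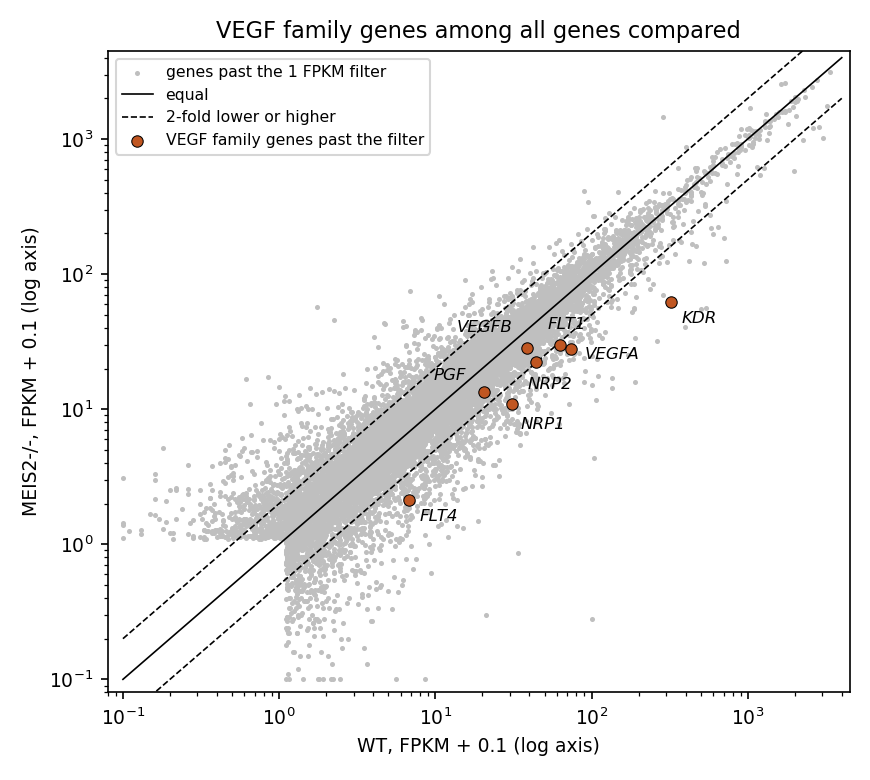
FPKM plus 0.1 in the MEIS2-/- library against the WT library, both on log axes, for all 13075 genes compared (grey) and the 8 VEGF family genes past the filter (coloured). All 8 lie below the line of equality, KDR farthest from it, and 5 lie below the lower dashed line of 2-fold.

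The levels were then summed by role, and the shares and ratios of genes were compared within each library. A common scaling of all genes cancels out of these shares and ratios but not out of the sums. The 3 receptor tyrosine kinases summed to 392.92 FPKM in WT and 93.54 FPKM in MEIS2-/- cells, which is 23.8% of the WT sum. KDR made up 87.4% of that difference. KDR contributed 82.4% of the receptor sum in WT and 66.3% in MEIS2-/- cells, and FLT1 contributed 15.9% and 31.6%. The ratio of KDR to FLT1 was therefore 5.18 in WT cells and 2.10 in MEIS2-/- cells. KDR and FLT1, the signalling receptor and the ligand-trapping receptor for VEGFA, thus differed in how much of their transcript remained, 19.1% for KDR and 47.3% for FLT1.

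As a sum, the ligands kept more of their transcripts than the receptor kinases, whose sum came mostly from KDR. The ligands summed to 132.67 FPKM in WT and 69.37 FPKM in MEIS2-/- cells, or 52.3% of the WT sum, and VEGFA made up 72.0% of the difference. Without KDR, FLT1 and FLT4 together kept 45.6% of their WT sum. VEGFA kept 37.9% of its WT level, less than FLT1 at 47.3%. VEGFA provided 55.3% of the ligand sum in WT and 40.1% in MEIS2-/- cells, and VEGFB provided 29.2% and 40.5%. VEGFA was 1.90 times as high as VEGFB in WT cells and 0.99 times as high in MEIS2-/- cells. The sum of VEGFB and PGF, the ligands of FLT1 alone among the receptor kinases, kept 70.0% of its WT level. The co-receptors summed to 74.66 FPKM and 32.98 FPKM, or 44.2% of the WT sum. For each unit of ligand transcript there were 2.96 units of receptor kinase transcript in WT cells and 1.35 in MEIS2-/- cells. These sums count transcripts of the cells and not the VEGF protein added to the medium.

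In order of level, the WT library ran KDR, VEGFA, FLT1, NRP2, VEGFB, NRP1, PGF, FLT4, VEGFC and VEGFD. In the MEIS2-/- library the order was KDR, FLT1, VEGFB, VEGFA, NRP2, PGF, NRP1, FLT4, VEGFC and VEGFD. FLT1, VEGFB and VEGFA lay between 27.82 and 29.53 FPKM there, and with 1 library their order among themselves is not settled.

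**Figure D3:**
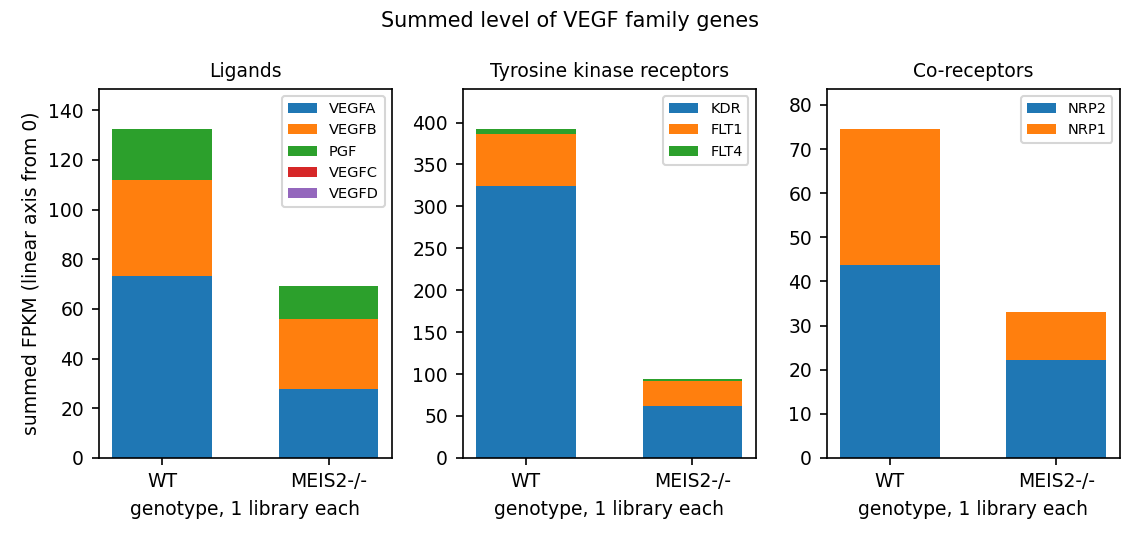
Summed FPKM of the ligands, the receptor tyrosine kinases and the co-receptors in the WT and MEIS2-/- libraries, on linear axes that start at 0 and differ between panels. The coloured parts are the single genes, and the KDR part accounts for most of the difference in receptors.

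The genes that act around the receptors were examined in lists drawn up by known function. Counts per list, here and for the markers below, stand beside 7.97% of all genes at least 2-fold lower and 7.84% at least 2-fold higher. Of 35 genes that relay signals from KDR, such as the phospholipase PLCG1 and the kinases of the RAF, MEK and ERK cascade, 33 were compared. At least 2-fold lower levels were found for 3 of the 33 and at least 2-fold higher levels for none, with a median log2 ratio of -0.02. The 3 were SH2D2A, an adaptor that binds KDR, at 12.09 FPKM in WT and 2.87 FPKM in MEIS2-/- cells, NOS3, the endothelial nitric oxide synthase, at 20.96 FPKM and 5.40 FPKM, and NFATC1, a transcription factor activated by calcineurin, at 45.49 FPKM and 16.88 FPKM. PLCG1, by contrast, was at 55.97 FPKM and 56.77 FPKM. PIK3R1, a regulatory subunit of PI3 kinase, had the highest log2 ratio of the list (0.99), from 2.43 FPKM in WT and 4.91 FPKM in MEIS2-/- cells. Without the added 0.1 FPKM its level in MEIS2-/- cells was 202% of WT, so it stayed under the 2-fold threshold only because of that addition. The share of this list that was at least 2-fold lower was close to the 7.97% of all genes.

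Phosphatases and ligand-handling genes differed little. Of the phosphatases that act on KDR, PTPN1 was at 23.92 FPKM in WT and 19.92 FPKM in MEIS2-/- cells, PTPRJ at 5.69 FPKM and 6.55 FPKM, and PTPRB, the phosphatase of endothelial cells, was below 1 FPKM in both. Of 12 genes that process or bind VEGF ligands, 1 was at least 2-fold lower, and their median log2 ratio was -0.02. That gene was ADAMTS3, the protease that activates VEGFC together with CCBE1, at 2.47 FPKM in WT and 0.91 FPKM in MEIS2-/- cells. CCBE1 itself was at 2.43 FPKM and 2.60 FPKM. PCSK7, a proprotein convertase, had the highest log2 ratio (0.77).

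Of 17 genes that VEGF is known to induce in endothelial cells, 8 stayed below 1 FPKM in both libraries and 9 were compared. Of the 9, 3 were at least 2-fold lower and 1 was at least 2-fold higher, with a median log2 ratio of -0.46. The shares over all genes compared were 7.97% and 7.84%. DUSP5, a phosphatase that switches off ERK, was at 57.61 FPKM in WT and 20.98 FPKM in MEIS2-/- cells. NR4A1, an orphan nuclear receptor, was at 41.88 FPKM and 17.45 FPKM, and the adhesion gene ICAM1 at 3.26 FPKM and 1.53 FPKM. VCAM1, also an adhesion gene, was at 0.49 FPKM and 2.06 FPKM and passed the filter only through the MEIS2-/- library. RCAN1, a feedback inhibitor of calcineurin, was at 6.09 FPKM and 5.30 FPKM. ESM1 and EGR2 were listed at 0 in the WT library.

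The closest relatives of the family did not share 1 direction. The PDGF ligands and the receptors PDGFRA, PDGFRB, KIT, CSF1R and FLT3 resemble the VEGF family in sequence and structure. Of the 9 genes in this list 6 were compared, of which 1 was at least 2-fold lower and 2 were at least 2-fold higher. PDGFRB was at 23.98 FPKM in WT and 10.80 FPKM in MEIS2-/- cells, PDGFC at 1.37 FPKM and 4.04 FPKM, and KIT at 3.33 FPKM and 10.02 FPKM. FLT3, a receptor of blood progenitors, was at or near 0 in both libraries.

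In the angiopoietin system, which acts on endothelial cells through the TEK and TIE1 receptors, 4 of 5 genes were compared, of which 1 was at least 2-fold lower and 1 at least 2-fold higher. TIE1 was at 8.32 FPKM in WT and 2.51 FPKM in MEIS2-/- cells, a log2 ratio of -1.69. TEK was at 16.01 FPKM and 8.84 FPKM, a log2 ratio of -0.85, and the ligand ANGPT1 was at 0.52 FPKM and 1.96 FPKM, a log2 ratio of 1.73.

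The neuropilins share their ligand-binding surface with class 3 semaphorins, and plexins pass on the semaphorin signal. Of 12 semaphorin and plexin genes 11 were compared, of which 2 were at least 2-fold lower and 1 at least 2-fold higher, with a median log2 ratio of -0.24. SEMA3F, a semaphorin that binds NRP2, was at 67.62 FPKM in WT and 18.07 FPKM in MEIS2-/- cells, a log2 ratio of -1.90. SEMA3E was at 1.51 FPKM and 0.59 FPKM, and SEMA3D, which had the highest log2 ratio of the list (1.39), at 0.42 FPKM and 1.26 FPKM. The plexin PLXND1, which is expressed on endothelium, was at 68.69 FPKM and 55.19 FPKM.

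Genes encoding transcription factors known to act on endothelial receptor genes were lower nearly throughout. Of 12 such genes, 10 were at least 2-fold lower and none at least 2-fold higher, with a median log2 ratio of -1.65. Over all genes compared these shares were 7.97% and 7.84%. Log2 ratios of these 10 ran from -2.64 for ETV2, the ETS factor that starts the endothelial and blood program, to -1.03 for ETS1, and also included ERG (-2.18), HHEX (-2.14), SOX18 (-2.14), SOX7 (-1.85), TAL1 (-1.81), FLI1 (-1.49), LMO2 (-1.47) and GATA2 (-1.17). The part of these factors in the values of KDR and the other receptor genes was not tested. ELK3 was at -0.79. SOX17, which is also an endoderm gene, was the 1 factor with a higher value, at 141.01 FPKM in WT and 264.03 FPKM in MEIS2-/- cells.

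VEGFA is a textbook target of the hypoxia-inducible factors. Of 12 hypoxia-induced genes 11 were compared, of which 9 were at least 2-fold lower, against 7.97% of all genes compared. The median log2 ratio of the 11 was -2.11, against -1.40 for VEGFA. Their log2 ratios ran from -5.30 for ANKRD37, at 33.68 FPKM in WT and 0.76 FPKM in MEIS2-/- cells, to 0.50 for ADM. The others at least 2-fold lower were P4HA1 (-2.99), BNIP3 (-2.76), LDHA (-2.52), NDRG1 (-2.50), PGK1 (-2.11), EGLN3 (-1.24), ENO1 (-1.12) and SLC2A1 (-1.04). Most of them encode glycolytic enzymes or other parts of the response to low oxygen, and their part in the value of VEGFA was not tested.

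Markers of endothelium and lateral mesoderm were lower in MEIS2-/- cells where they could be compared, as the family was. Of 11 endothelium markers 8 were compared. All 8 were lower and 5 were at least 2-fold lower, against 40.6% and 7.97% of all genes compared. The list summed to 396.04 FPKM in WT and 108.04 FPKM in MEIS2-/- cells. CDH5, the junction cadherin of endothelium, was at 15.20 FPKM and 5.02 FPKM, and the ratio of KDR to CDH5 was 21.3 in WT cells and 12.3 in MEIS2-/- cells. Markers of more mature endothelium such as EMCN, ROBO4 and CLDN5 were below 1 FPKM in both libraries, and no endothelium marker was listed at 0. Among these, EMCN was lower in MEIS2-/- cells (0.11 FPKM in WT and 0.03 FPKM in MEIS2-/-). ROBO4 (0.05 FPKM and 0.09 FPKM) and CLDN5 (0.28 FPKM and 0.65 FPKM) were higher. Of 8 lateral mesoderm markers all 8 were lower and 3 were at least 2-fold lower, with sums of 754.72 FPKM and 503.19 FPKM. APLNR, a surface marker of lateral mesoderm, was at 223.49 FPKM and 132.54 FPKM, so the ratio of KDR to APLNR was 1.45 in WT cells and 0.47 in MEIS2-/- cells. The blood cell markers were low, with a sum of 19.52 FPKM in WT and 14.52 FPKM in MEIS2-/- cells. Of the 12 blood markers, 6 were compared, of which 2 were at least 2-fold lower and 1, the globin gene HBE1 (0.42 FPKM and 2.06 FPKM), at least 2-fold higher, and HBZ was listed at 0 in the WT library.

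Markers of undifferentiated cells and of visceral endoderm were higher where they could be compared, while those of trophoblast were mixed. All 6 compared markers of undifferentiated cells were higher, 4 of them at least 2-fold, with sums of 561.48 FPKM in WT and 1892.06 FPKM in MEIS2-/- cells, while SOX2 stayed below 1 FPKM in both. All 8 visceral endoderm markers were higher, 6 of them at least 2-fold, with sums of 600.94 FPKM and 1285.34 FPKM. Over all genes compared, only 40.6% were lower by any amount and the median log2 ratio was 0.12. LIN28A (0.13) of the undifferentiated markers and FOXA2 (0.19) of the endoderm markers, both counted as higher, lay near that median. AFP (0.32 FPKM in WT and 3.91 FPKM in MEIS2-/- cells) and TTR (0.38 FPKM and 5.31 FPKM) passed the filter only through the MEIS2-/- library. Trophoblast, a placental cell type known to express PGF and FLT1, had 4 of 8 listed markers compared, of which 3 were at least 2-fold higher. The list summed to 58.46 FPKM in WT and 79.22 FPKM in MEIS2-/- cells, mostly from GATA3 (55.06 FPKM and 55.40 FPKM). KRT7 (0.51 FPKM and 16.68 FPKM) and XAGE2 (0 FPKM and 1.28 FPKM) passed the filter only through the MEIS2-/- library. Both could therefore only come out higher. The trophoblast hormone genes CGA and CGB3 were below 1 FPKM in both. CGA was at 0.13 FPKM in WT cells and listed at 0 in MEIS2-/- cells. GCM1 and HSD3B1 were also below 1 FPKM in both, and all 4 of these genes were lower in MEIS2-/- cells. Of 5 listed neural markers 2 were compared and they differed in opposite directions, NES at 92.71 FPKM in WT and 66.02 FPKM in MEIS2-/- cells and TUBB3 at 121.8 FPKM and 259.1 FPKM, with sums over the list of 214.75 FPKM and 325.78 FPKM. The part of these cell types in the values of the VEGF family was not tested.

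Genes next to the family members on the chromosomes were compared as well, with gene names, order and positions from RefSeq on GRCh38.p14. Taking the 2 listed genes on either side of each of the 8 family genes gave 32 neighbours, of which 27 were compared. Of these, 3 were at least 2-fold lower (RSPH9 and LINC03040 beside VEGFA, and SLC46A3 beside FLT1) and 2 were at least 2-fold higher (KIT beside KDR, and INO80D beside NRP2), with a median log2 ratio of 0.06. The receptor genes PDGFRA, KIT and KDR follow one another on chromosome 4 among the listed genes. Their log2 ratios were -0.45, 1.56 and -2.38, so adjacent receptor genes differed in opposite directions. None of the 10 family genes overlapped another gene listed in the tables.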

How the data were processed

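RNA-Seq of 1 WT and 1 MEIS2-/- library at day 4 was analysed. The authors deposited 1 FPKM value per gene and library, rounded to 2 decimals. The submitters' processing notes name BWA, Bowtie, RSEM and hg19, without versions, and the use of strand is not given in the sources used here. FPKM depends on the total, so a change in abundant genes shifts all others. The tables summed to 447542 FPKM (WT) and 440651 FPKM (MEIS2-/-). Low values did not fall on whole-read steps (highest agreement 0.25 on a scale up to 1, in each library), so depth is unknown and no counting error is given.

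NCBI Gene numbers were matched to symbols for 17365 of 17397 genes with RefSeq on GRCh38.p14. Log2 ratios used a pseudocount of 0.1 FPKM over the 13075 genes (75.2%) that reached 1 FPKM in either library, with a threshold of 2-fold. Named genes were all members, the lowest and highest of each pathway list and pathway genes at 5 FPKM or more that differed at least 2-fold; the rule did not cover the marker lists, and others named (such as PLCG1, PDGFC, CCBE1, single markers and the neighbours) were chosen after their values were seen. The members and lists were chosen with earlier results of these data known. The calculation was tested on simulated data. Alternatives were pseudocounts of 1 and 0.01, no filter or 5 FPKM, thresholds of 1.5-fold and 4-fold, and rescaling by the median of the 8092 genes that reached 5 FPKM in each library or by TMM (trimming 30% of the ratios and 5% of the levels at each end). Python 3.11.15, numpy 2.4.6, pandas 2.3.3 and matplotlib 3.10.9 were used.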

Additional observations from a re-analysis of the deposited data

How the results depend on the processing

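Each result rests on 1 library per genotype, so neither a difference between cultures nor one between clones can be told apart from the genotype, and the unknown depth limits the low values (VEGFC, VEGFD, FLT4) most. No paired analysis was possible because each genotype had 1 library and no test was made. The direction of the 10 genes could not change, since an equal pseudocount on both values keeps it and both scalings lowered the log2 ratios. Of the 40 values obtained with both other pseudocounts and both scalings, 38 stayed on the same side of 2-fold. The exceptions were NRP2 with either scaling. The count of genes at least 2-fold lower was 5 or 6 under the other pseudocounts, filters and scalings. With the threshold set at 1.5-fold 7 genes were lower by that much, and at 4-fold 1 (KDR). The count of genes higher by the threshold used was 0 throughout. The median log2 ratio of the family was -1.20 with a pseudocount of 1 FPKM, -1.03 over all 10 genes without a filter, -1.35 with median scaling and -1.36 with TMM. Relative to WT, the ligand sum was 48.3% with median scaling and 48.1% with TMM, the receptor kinase sum 22.0% and 21.9%, and the co-receptor sum 40.8% and 40.7%. For the pathway lists, whose alternatives were added after the data were seen, both scalings left 30 lower and 5 higher genes of 100, while a pseudocount of 1 FPKM gave 26 and 3 and one of 0.01 FPKM gave 30 and 6. Both scalings lowered the log2 ratios by 0.12, and by less in genes near 0, where the pseudocount dampens the shift.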
